A study of Mus musculus with 12 samples.

Results

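Apelin and adrenomedullin are vasoactive peptides, and the genes described here are the 7 that encode the ligands, receptors and receptor partners of both systems: Apln, Aplnr, Adm, Calcrl, Ramp1, Ramp2 and Ramp3. The members were chosen by gene symbol, and the genotype differences of these same samples were in view when they were chosen. All 7 were listed in every sample, among 33641 genes listed and 22948 with a value above 0 in at least 1 sample. All 7 had a mean of at least 0.5 TPM (a level corrected for gene length and scaled to the same total in each sample) and were therefore among the 12526 genes tested.

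RNA was sequenced from whole left (LV) and right (RV) ventricles of mice in which human phospholamban (PLN), the inhibitor of the sarcoplasmic reticulum calcium pump, was placed in the mouse Pln gene. The 12 samples form 4 groups of 3: LV WT-PLN, RV WT-PLN, LV R14del-PLN and RV R14del-PLN. WT-PLN mice carried normal human PLN, and R14del-PLN mice carried human PLN lacking arginine 14 together with a WT human copy. Both genotypes thus share the humanized locus, and all mice were 12 to 14 weeks old. The labels give the strain as C57BL/6J, whereas the methods describe a line of mixed origin in which the inserted cassette was cut out with a Sox2-Cre, which acts throughout the embryo. Titles of the mutant samples read KO, but their genotype label is R14del-PLN, and they were treated as such. The question of the design was which transcripts differ between the genotypes and between the ventricles.

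Apelin acts on APLNR, a G protein-coupled receptor of endothelial cells and cardiomyocytes, and is known for relaxing vessels, for strengthening contraction and for roles in vessel growth. Adrenomedullin acts on CALCRL, which needs a RAMP (receptor activity-modifying protein) at its side to reach the membrane. With RAMP2 or RAMP3 the pair is an adrenomedullin receptor, and with RAMP1 it is a receptor for calcitonin gene-related peptide. Endothelial cells of the heart are a well-known site of Apln, Calcrl and Ramp2.

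Some features of the libraries bear on all values. Endothelial markers, including Pecam1, Cdh5 and Kdr, were present in every sample, with a summed level of 203 to 343 TPM over the 15 genes. Cardiomyocyte markers were far higher, at 34143 to 52182 TPM over 10 genes. Mitochondrially encoded transcripts took 37.3% of all TPM in LV R14del-PLN replicate 3 and 44.0% to 54.5% in the other samples. In WT-PLN replicate 1, the summed level of 4 Y-linked genes was 0.284 TPM in the LV and 0.250 TPM in the RV, although the methods describe male mice and the 10 other samples had 43.5 to 63.7 TPM. The file of RV R14del-PLN replicate 3 carries another run number than the others, and a run of 1 sample gives no value within the run. The log2 differences of the members were computed with and without these samples.

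For 5 of the 7 members (Apln, Adm, Calcrl, Ramp1 and Ramp3) the RefSeq table of mouse promoters (GRCm38.p6) held a sequence, and the 250 bases before the start site were searched on both strands for ACGTG, the core of the element that hypoxia-inducible factors bind, and for CACCC, the core that Krüppel-like factors bind. None of the 5 windows held ACGTG, which was present in 16.6% of 32851 mouse windows of the same length. CACCC was found in 3 of the 5, those of Calcrl, Ramp1 and Ramp3, against 52.0% of all windows. The windows of Ramp3, Ramp1 and Apln are printed so that the RAMP gene with the largest ventricular difference, Ramp3, can be read beside its relative Ramp1 and beside the ligand gene Apln, at chr11:6658283-6658532 (plus strand), chr1:91179572-91179821 (plus strand) and chrX:48034854-48035103 (minus strand). Capitals mark CACCC or its reverse complement GGGTG, which began at bases -200 and -73 from the start site in Ramp3 and at -61 and -30 in Ramp1.
Ramp3: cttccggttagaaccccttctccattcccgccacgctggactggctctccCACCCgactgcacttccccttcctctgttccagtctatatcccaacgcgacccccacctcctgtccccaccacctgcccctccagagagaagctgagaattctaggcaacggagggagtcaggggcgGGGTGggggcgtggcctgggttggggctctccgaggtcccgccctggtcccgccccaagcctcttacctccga
Ramp1: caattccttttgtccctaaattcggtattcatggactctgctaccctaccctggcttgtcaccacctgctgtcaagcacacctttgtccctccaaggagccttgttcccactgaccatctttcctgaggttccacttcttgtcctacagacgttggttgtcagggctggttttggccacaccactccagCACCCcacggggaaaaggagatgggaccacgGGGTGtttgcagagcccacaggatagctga
Apln: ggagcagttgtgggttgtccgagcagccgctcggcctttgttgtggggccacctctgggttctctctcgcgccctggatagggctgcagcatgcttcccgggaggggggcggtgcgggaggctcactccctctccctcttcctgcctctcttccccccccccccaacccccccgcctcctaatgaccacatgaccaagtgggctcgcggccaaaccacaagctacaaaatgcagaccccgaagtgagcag
A match is a run of letters and not a binding site, and a window without it says nothing about the factor.

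Over the 12 samples, the mean level was 25.4 TPM for Ramp2, 4.74 TPM for Calcrl, 4.16 TPM for Adm, 3.54 TPM for Aplnr, 3.12 TPM for Ramp1, 2.06 TPM for Ramp3 and 1.93 TPM for Apln. Ramp2 was above Calcrl in 12 of 12 samples, with no overlap in any group. The neighbours below it were mostly not cleanly ordered. Ramp1 exceeded Ramp3 in 11 of 12 samples, with ranges that overlapped only in LV WT-PLN. Adm exceeded Aplnr in 8 of 12, without overlap in the WT-PLN groups and with overlap in the R14del-PLN groups. Calcrl exceeded Adm in 10 of 12 samples, with overlapping ranges in each of the 4 groups, and Ramp3 exceeded Apln in 6 of 12. Aplnr exceeded Ramp1 in 6 of 12 samples, and the ranges of this pair did not overlap in the R14del-PLN groups, where Aplnr was above Ramp1.

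**Figure D1:**
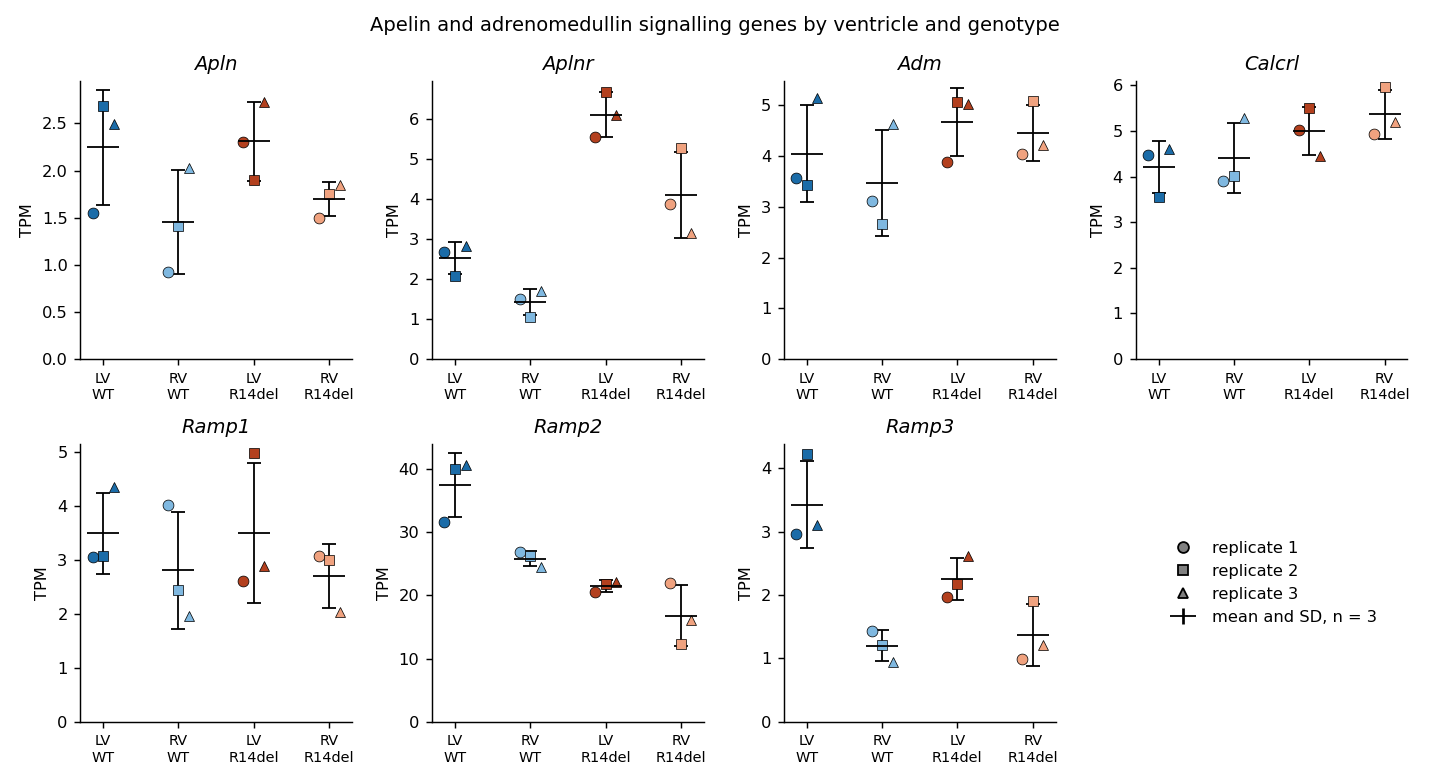
Level of each of the 7 genes in TPM (vertical axes, linear, starting at 0) in the 3 samples of each group of ventricle and genotype; symbols give the replicate number, and bars the mean and SD. Aplnr stands at 5.56 to 6.68 TPM in LV R14del-PLN and at 2.08 to 2.84 TPM in LV WT-PLN, while Ramp2 and Ramp3 are highest in LV WT-PLN.

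The apelin system comes first. Apln, the ligand gene (chrX:48025146-48034853, minus strand, GRCm38), read 1.55, 2.69 and 2.49 TPM in LV WT-PLN and 0.927, 1.41 and 2.03 TPM in RV WT-PLN. In R14del-PLN hearts it read 2.31, 1.90 and 2.73 TPM in the LV and 1.49, 1.75 and 1.84 TPM in the RV. The RV was lower in each same-numbered pair of both genotypes, and the ventricles overlapped in WT-PLN but not in R14del-PLN hearts.

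Aplnr, the receptor gene (chr2:85136225-85139923, plus strand), read 2.68, 2.08 and 2.84 TPM in LV WT-PLN and 1.49, 1.06 and 1.71 TPM in RV WT-PLN. It read 5.56, 6.68 and 6.11 TPM in LV R14del-PLN and 3.88, 5.28 and 3.15 TPM in RV R14del-PLN. The 4 groups did not overlap: both ventricles of R14del-PLN hearts lay above both ventricles of WT-PLN hearts, and the LV lay above the RV within each genotype. The mean level in R14del-PLN was 2.42 times that in WT-PLN in the LV and 2.88 times in the RV. These genotype differences helped to choose the genes, so they are given as a description.

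The ligand can be set beside its receptor as a ratio. The ratio of Apln to Aplnr in TPM was 0.918 ± 0.360 (SD, n = 3) in LV WT-PLN, 1.04 ± 0.373 in RV WT-PLN, 0.382 ± 0.0865 in LV R14del-PLN and 0.434 ± 0.134 in RV R14del-PLN. In each ventricle the lowest WT-PLN ratio (0.580 in the LV and 0.621 in the RV) lay above the highest R14del-PLN ratio (0.447 and 0.586). LV and RV overlapped within each genotype. The ratio contains Aplnr, whose genotype difference was in view when the genes were chosen, so its own genotype difference is a description and no separate result. The mean Apln level in R14del-PLN and WT-PLN hearts was 2.31 ± 0.417 and 2.25 ± 0.607 TPM in the LV and 1.70 ± 0.181 and 1.45 ± 0.552 TPM in the RV.

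Adm, the adrenomedullin gene (chr7:110627661-110629820, plus strand), read 3.56, 3.43 and 5.14 TPM in LV WT-PLN, 3.12, 2.65 and 4.64 TPM in RV WT-PLN, 3.89, 5.07 and 5.03 TPM in LV R14del-PLN and 4.04, 5.08 and 4.22 TPM in RV R14del-PLN. Its 4 groups overlapped. The annotation places an antisense gene, Gm28863, over Adm, and whether reads were counted by strand is not given in the sources used here.

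Calcrl, the receptor gene (chr2:84330626-84425411, minus strand), read 4.47, 3.55 and 4.61 TPM in LV WT-PLN, 3.90, 4.02 and 5.29 TPM in RV WT-PLN, 5.03, 5.50 and 4.44 TPM in LV R14del-PLN and 4.94, 5.97 and 5.19 TPM in RV R14del-PLN. It was the only one of the 7 genes with a higher mean in the RV than in the LV in either genotype, and those ranges overlapped. The ratio of Adm to Calcrl was between 0.779 and 0.960 in the 4 group means.

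The RAMP genes spread further than their receptor. Ramp2 (chr11:101246028-101259546, plus strand), the main adrenomedullin partner of CALCRL in vessels, read 31.7, 40.1 and 40.7 TPM in LV WT-PLN and 26.8, 26.2 and 24.5 TPM in RV WT-PLN. In R14del-PLN hearts it read 20.5, 21.8 and 22.2 TPM in the LV and 21.9, 12.3 and 16.2 TPM in the RV. LV WT-PLN lay above the 3 other groups without overlap, and RV WT-PLN lay above both R14del-PLN groups, which overlapped each other. The mean in WT-PLN was 1.74 times that in R14del-PLN in the LV and 1.54 times in the RV. Ramp2 overlaps Vps25, a neighbour on the same strand with a mean of 52.2 TPM, so reads of the shared stretch could have been assigned to either.

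Ramp3 (chr11:6658521-6677475, plus strand), the other adrenomedullin partner, read 2.96, 4.22 and 3.10 TPM in LV WT-PLN and 1.44, 1.22 and 0.943 TPM in RV WT-PLN. It read 1.97, 2.17 and 2.61 TPM in LV R14del-PLN and 0.985, 1.91 and 1.21 TPM in RV R14del-PLN. The LV lay above the RV in both genotypes without overlap. In the LV every WT-PLN value exceeded every R14del-PLN value, while in the RV the genotypes overlapped.

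Ramp1 (chr1:91179822-91225196, plus strand), the partner that makes the receptor for calcitonin gene-related peptide, read 3.05, 3.07 and 4.35 TPM in LV WT-PLN, 4.02, 2.45 and 1.95 TPM in RV WT-PLN, 2.62, 4.99 and 2.88 TPM in LV R14del-PLN and 3.08, 2.99 and 2.03 TPM in RV R14del-PLN. Its 4 groups overlapped.

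Because TPM is per length, the RAMP genes can be set against each other within a sample. Ramp2 made up 84.4 ± 0.289% (SD, n = 3) of the summed RAMP level in LV WT-PLN, 86.7 ± 3.29% in RV WT-PLN, 79.1 ± 3.37% in LV R14del-PLN and 79.7 ± 7.13% in RV R14del-PLN. Ramp2 was thus the largest part of the RAMP pool in every sample, the lowest share being 71.5% in RV R14del-PLN replicate 2. The share of Ramp3 was 7.73 ± 1.24% in LV WT-PLN, 3.99 ± 0.512% in RV WT-PLN, 8.26 ± 1.03% in LV R14del-PLN and 7.04 ± 3.72% in RV R14del-PLN. In WT-PLN hearts the Ramp3 share was 3.74 percentage points below the LV in the RV, and no samples overlapped (exact two-sided permutation test, p = 0.1, the lowest value 3 samples against 3 can reach, and 0.6 after Benjamini-Hochberg adjustment over 12 tests). The share of Ramp1 was 7.87 ± 1.29%, 9.26 ± 2.83%, 12.7 ± 3.94% and 13.2 ± 3.67% in the same order of groups.

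**Figure D2:**
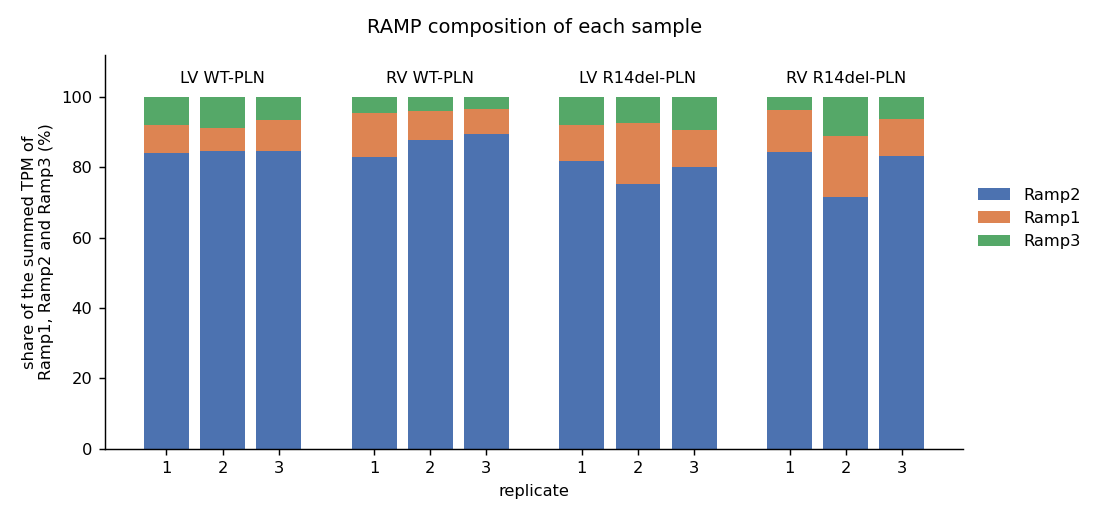
Share of the summed TPM of Ramp1, Ramp2 and Ramp3 taken by each gene (vertical axis, percent) in each of the 12 samples, grouped by ventricle and genotype. Ramp2 takes 71.5% to 89.4% in every sample, and the Ramp3 segment in RV WT-PLN is 3.44% to 4.46%, below that of each LV sample.

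By group means, the RAMP pool was also smaller per unit of receptor transcript in the RV and in R14del-PLN hearts, though some ranges overlapped. The summed RAMP level was 10.7 ± 2.47 times that of Calcrl in LV WT-PLN, 6.96 ± 1.60 times in RV WT-PLN, 5.49 ± 0.652 times in LV R14del-PLN and 3.96 ± 1.20 times in RV R14del-PLN. The ventricles did not overlap in WT-PLN hearts (exact permutation p = 0.1, adjusted 0.6 over the 12 tests) and overlapped in R14del-PLN hearts (exact permutation p = 0.2, adjusted 0.764). Of the genotype differences, which are a description, the LV ranges did not overlap and the RV ranges did.

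The difference between the ventricles was not itself used to choose the genes. It was tested with limma on log2(TPM + 1) and Benjamini-Hochberg adjustment over all 12526 genes. It shares its samples with the genotype differences that were in view, so the test is not independent of the choice. LV WT-PLN, where Ramp2 and Ramp3 were highest, enters both kinds of difference. Genes were called where the adjusted p did not exceed 0.05 and the fold reached 1.5. In WT-PLN hearts 0 of the 7 genes were called, as were 0% of all genes tested, while 4 of the 7 and 1811 of all genes had an unadjusted limma p under 0.05. The LV and RV ranges did not overlap for 3 of the 7 (Aplnr, Ramp2 and Ramp3, each lower in the RV), against 25.2% of all genes lower without overlap and 0.974% higher. The whole table leaned the same way: 85.9% of all genes were lower in the RV, with a median log2 difference of -0.17.

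The largest difference was that of Ramp3, with a mean in the LV 2.86 times that in the RV and a log2 difference of -1.00 ± 0.17 (SE, limma adjusted p = 0.131), which placed it at rank 49 from the lowest of all genes. Quantile normalization, which brought the median of all genes to 0.00, left it at -0.84 (limma adjusted p = 0.147). Same-numbered LV and RV samples of WT-PLN hearts deviated together, and with the replicate number as a fixed block Ramp3 passed the threshold (log2 difference -1.00, limma adjusted p = 0.0436), as did 12 of all genes. As a random block the adjusted p was 0.0969. Ramp3 also passed without RV R14del-PLN replicate 2, which enters only the shared spread (limma adjusted p = 0.0479), and reached -1.16 without both WT-PLN replicate 1 samples (adjusted p = 0.357).

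Aplnr was 1.78 times as high in the LV as in the RV of WT-PLN hearts (log2 difference -0.55 ± 0.17, limma adjusted p = 0.247). Ramp2 was 1.45 times as high (-0.51 ± 0.17, limma adjusted p = 0.269), and Apln 1.54 times (-0.41 ± 0.18, limma adjusted p = 0.328). None of these passed, and quantile normalization gave -0.39, -0.31 and -0.27. Without both WT-PLN replicate 1 samples they stood at -0.54, -0.65 and -0.41. The remaining values were -0.26 for Ramp1, -0.18 for Adm and 0.05 for Calcrl, the last with a 95% interval of -0.25 to 0.35.

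In R14del-PLN hearts the order of the differences was similar and their sizes were mostly smaller. Again 0 of the 7 genes were called by limma, with 0% of all genes tested, while 3 of the 7 and 823 of all genes had an unadjusted p under 0.05. Ranges did not overlap for 3 of the 7 (Apln, Aplnr and Ramp3, each lower in the RV), against 8.72% of all genes lower and 1.26% higher. The log2 difference was -0.50 ± 0.17 for Aplnr (limma adjusted p = 0.711), -0.47 ± 0.17 for Ramp3 (adjusted p = 0.737) and -0.37 ± 0.17 for Ramp2 (adjusted p = 0.751). Apln stood at -0.29, Ramp1 at -0.26, Adm at -0.05 and Calcrl at 0.09, and the median of all genes at -0.08. That median was 0.02 without LV R14del-PLN replicate 3. Without RV R14del-PLN replicate 3 the values were -0.36 for Aplnr, -0.43 for Ramp3, -0.36 for Ramp2 and -0.33 for Apln. The sign of Adm turned under quantile normalization (0.02).

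**Figure D3:**
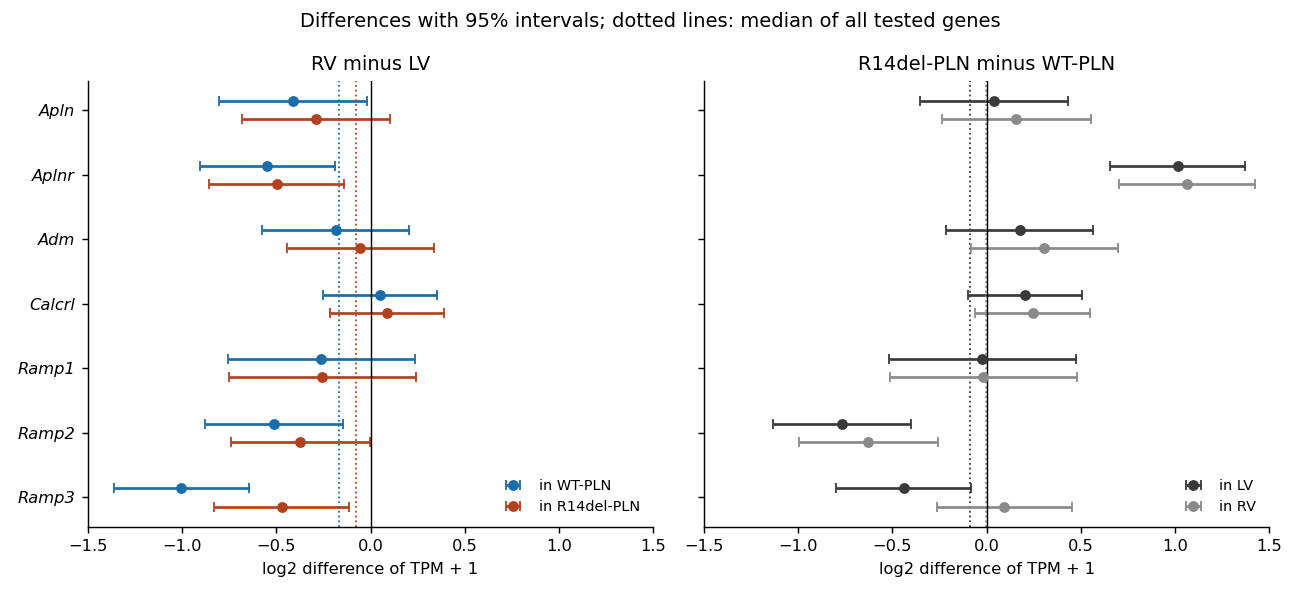
Log2 difference of TPM + 1 (horizontal axes) for each gene, RV minus LV within each genotype on the left and R14del-PLN minus WT-PLN within each ventricle on the right; points are limma estimates, bars 95% intervals, and dotted lines the median of all tested genes. Ramp3 in WT-PLN hearts lies furthest left at -1.00, and Aplnr stands at 1.01 in the LV and 1.06 in the RV in the genotype panel.

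Whether the ventricular difference itself differed between the genotypes was fitted as an interaction. The same contrast is the RV genotype difference minus the LV genotype difference, and both were in view when the genes were chosen. For the 7 genes its values are therefore a description, and nothing is read from which gene stood out. With limma, 0 of the 7 genes and 0% of all genes passed, and 1 of the 7 and 127 of all genes had an unadjusted p under 0.05. That gene was Ramp3, whose RV minus LV difference was 0.53 ± 0.23 log2 units less negative in R14del-PLN hearts (limma adjusted p = 1.00). For the other 6 genes the estimates lay between 0.01 and 0.14.

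The genotype differences, on the same scale and without a test, were 1.01 ± 0.17 (SE) for Aplnr, 0.20 for Calcrl, 0.18 for Adm, 0.04 for Apln, -0.02 for Ramp1, -0.44 for Ramp3 and -0.77 for Ramp2 in the LV. In the RV they were 1.06 ± 0.17 for Aplnr, 0.31 for Adm, 0.24 for Calcrl, 0.16 for Apln, 0.09 for Ramp3, -0.02 for Ramp1 and -0.63 for Ramp2. Without both WT-PLN replicate 1 samples Aplnr stood at 1.05 in the LV and 1.09 in the RV, Ramp2 at -0.88 and -0.60, and Ramp3 at -0.51 and 0.17. Without RV R14del-PLN replicate 3 the RV values were 1.20 for Aplnr, -0.62 for Ramp2 and 0.13 for Ramp3. The signs of Apln and Ramp1 in both ventricles and of Ramp3 in the RV turned when single samples were left out. Aplnr was the 1 gene of the 7 past the call thresholds in each ventricle, a count that describes values in view when the genes were chosen and from which nothing is read. The same thresholds were passed by 0.519% of all genes in the LV (0.0958% upward and 0.423% downward) and 0.271% of them in the RV (0.0719% upward and 0.2% downward). Counts of calls were 0 without LV WT-PLN replicate 2 or 3 or LV R14del-PLN replicate 1 or 2 (LV), and without RV WT-PLN replicate 2 or RV R14del-PLN replicate 2 (RV). In the LV Ramp2 joined Aplnr without LV WT-PLN replicate 1, RV R14del-PLN replicate 1 or 2, or both WT-PLN replicate 1 samples. These counts also rest on values in view when the genes were chosen, and nothing is read from them. Aplnr ranked 44 from the highest of the 12526 genes in the LV and 35 in the RV. Ranges without overlap were seen for Aplnr upward in the LV (2.48% of all genes) and in the RV (5.19%), for Ramp2 and Ramp3 downward in the LV (8.47%) and for Ramp2 downward in the RV (5.79%). The contrasts of the LV and of the RV use different samples, but these are not shown to come from different mice. Same-numbered LV and RV samples of WT-PLN hearts deviated together, and both contrasts share an estimate of the spread. A difference seen in both ventricles is therefore not an independent repeat, and the genes were chosen with both in view.

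All 15 endothelial markers were lower in the RV in each genotype, with a median log2 difference of -0.43 (WT-PLN) and -0.28 (R14del-PLN). Limma called 0 of them. While 1811 and 823 of all 12526 genes had an unadjusted limma p under 0.05, 11 and 5 of the 15 markers did. Their summed level was 266 to 343 TPM in LV WT-PLN, 203 to 237 in RV WT-PLN, 257 to 309 in LV R14del-PLN and 204 to 259 in RV R14del-PLN. Of all genes, 85.9% (WT-PLN) and 70.3% (R14del-PLN) were lower in the RV, with median log2 differences of -0.17 and -0.08. Without mitochondrially encoded genes these medians were -0.06 and 0.06. In whole tissue, fewer endothelial cells, less RNA per cell and a shift within the fixed total of TPM cannot be told apart. Taken relative to the mean log2 level of these markers in the same sample, the WT-PLN ventricular difference of Ramp3 was -0.55, that of Aplnr -0.09, that of Ramp2 -0.06 and that of Apln 0.04. On this reference the median of all genes stood at 0.29, and limma called 336 genes, 332 of them higher in the RV. Ramp3 fell short of the fold of 1.5 there (limma adjusted p = 0.0443).

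Between the genotypes, 11 of the 15 endothelial markers were lower in the LV of R14del-PLN hearts (median log2 difference -0.20) and 9 of the 15 in the RV (median -0.01). Of all tested genes, 71.7% were lower in the LV and 50.9% in the RV. The LV median log2 difference of all genes was -0.09, and -0.19 without LV R14del-PLN replicate 3. Relative to the endothelial markers, the genotype difference of Aplnr was 1.17 in the LV and 1.06 in the RV, and that of Ramp2 -0.61 and -0.63.

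Across the 12 samples, Pearson's r with the endothelial mean was 0.885 for Ramp3, 0.765 for Apln, 0.496 for Ramp2, 0.375 for Ramp1, 0.332 for Adm, 0.253 for Aplnr and -0.226 for Calcrl. With the group means removed it was 0.603 for Ramp3, 0.635 for Apln and -0.114 for Ramp2. These are descriptions over samples that share a group structure and the closed sum of TPM.

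**Figure D4:**
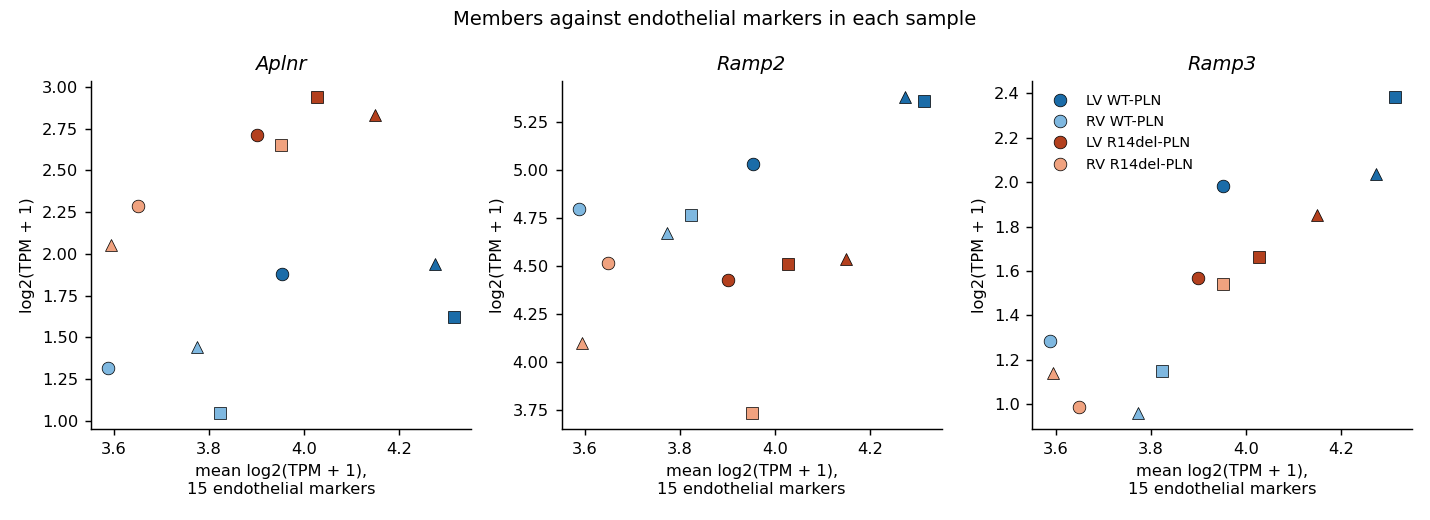
Level of Aplnr, Ramp2 and Ramp3 (vertical axes, log2(TPM + 1)) against the mean log2(TPM + 1) of 15 endothelial markers (horizontal axes) in each of the 12 samples; colours give the group and symbols the replicate number, and axes do not start at 0. Ramp3 follows the markers across the groups (r = 0.885), whereas in the Aplnr panel each of the 6 R14del-PLN samples lies above each of the 6 WT-PLN samples.

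Markers of other cell types were read beside the members, and their part in these results was not tested. The shares of all tested genes that were lower were 85.9% (WT-PLN) and 70.3% (R14del-PLN) between the ventricles and 71.7% (LV) and 50.9% (RV) between the genotypes. Smooth muscle and pericyte markers were lower in the RV of WT-PLN hearts for 12 of 12 genes (median log2 difference -0.45) and for 7 of 12 in R14del-PLN hearts (-0.14). Markers of tip and vein endothelium, where Apln and Aplnr are known to be high, were lower in R14del-PLN hearts for 7 of 8 tested genes in the LV (median -0.32) and 5 of 8 in the RV (-0.21). Lymphatic markers, where Calcrl and Ramp2 are known to act, were lower for 6 of 7 genes in the LV (-0.14) and 5 of 7 in the RV (-0.10). Fibroblast markers were lower for 10 of 10 genes in both ventricles (-0.38 and -0.17) and red cell transcripts for 5 of 5 (-0.62 and -0.59). The summed level of 8 atrial markers varied from 72.6 to 1360 TPM between samples. Of the 68 tested genes of the 8 marker lists other than the endothelial one, which include macrophage and cardiomyocyte markers, limma called 0 in each comparison. An unadjusted p under 0.05 was seen for 13 of the 68 between the ventricles in WT-PLN and 7 in R14del-PLN, and for 16 between the genotypes in the LV and 8 in the RV. Of all 12526 genes, 1811, 823, 1203 and 779 had one, in the same order.

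The other genes of the apelin pathway were taken from a list of 16, of which 15 were tested. Limma called 0 of them between the ventricles, where 2 in WT-PLN and 0 in R14del-PLN had an unadjusted p under 0.05. Of all 12526 genes, 1811 and 823 did. Between the genotypes limma put 1 of the 15 past the thresholds, beside 0.519% of all genes in the LV and 0.271% in the RV. This was Klf2, the flow-responsive endothelial transcription factor that lies downstream of apelin. Its genotype values are given as a description, since the list was made with earlier results of these data known. Klf2 read 26.9 ± 11.5 TPM in WT-PLN and 8.83 ± 0.588 TPM in R14del-PLN in the LV (SD, n = 3, log2 difference -1.42), and 18.4 ± 6.10 and 6.40 ± 0.996 TPM in the RV (-1.36). It was past the thresholds in the LV and not in the RV, which does not show that the ventricles differ, and of 25 alternative fits 18 put it past them in the LV and 8 in the RV. Without both WT-PLN replicate 1 samples it passed in both (-1.74 in the LV and -1.58 in the RV). In the LV it did not pass without any 1 of 6 libraries (LV WT-PLN replicates 2 and 3, each LV R14del-PLN replicate and RV R14del-PLN replicate 3). These counts of passing fits rest on values known when the list was made, and nothing is read from them. Apela, the second ligand of the receptor, reached at most 0.0352 TPM in any sample. Mme, whose product (neprilysin) cuts apelin peptides, had group means of 3.53 to 4.56 TPM. The median log2 difference of the list was -0.28 in the LV and -0.14 in the RV between the genotypes, beside -0.09 and -0.00 for all genes.

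Of the 15 other genes of the adrenomedullin pathway 11 were tested, and limma called 0 in each comparison. An unadjusted p under 0.05 was seen for 2 of them between the ventricles in WT-PLN, 1 in R14del-PLN and 1 between the genotypes in the LV. Of all 12526 genes, 1811, 823 and 1203 had one, in the same order. Alternative ligands and receptors were close to absent: Adm2 was listed at 0 in all 12 samples, and Calca, Calcb and Calcr reached at most 0.137, 0.102 and 0.0332 TPM. Pam, which amidates the peptide to its active form, was high, at 184 to 227 TPM in the group means. Ackr3, a scavenging receptor for adrenomedullin, read 21.0 ± 2.50 TPM in LV WT-PLN, 13.3 ± 1.92 in RV WT-PLN, 22.6 ± 2.97 in LV R14del-PLN and 16.5 ± 3.73 in RV R14del-PLN. Its RV minus LV difference in WT-PLN hearts was -0.63 (limma adjusted p = 0.217). Gpr182, an endothelial receptor long listed with this family, stayed between 1.10 and 1.27 TPM in the group means.

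Adm and Apln are known targets of hypoxia-inducible factors, and a list of 15 hypoxia-responsive genes was read beside them. Of the 14 tested, limma called 0 between the ventricles, where 3 in WT-PLN and 1 in R14del-PLN had an unadjusted p under 0.05. Of all 12526 genes, 1811 and 823 did. Between the genotypes limma put 1 of the 14 past the thresholds in each ventricle, beside 0.519% of all genes in the LV and 0.271% in the RV. This was Ddit4, an inhibitor of mTORC1 that also responds to glucocorticoids, and its values are likewise a description. In WT-PLN and R14del-PLN hearts it read 43.0 ± 10.3 and 14.3 ± 5.57 TPM in the LV (SD, n = 3, log2 difference -1.56) and 32.1 ± 4.19 and 11.6 ± 3.34 TPM in the RV (-1.42). Without both WT-PLN replicate 1 samples the differences were -1.76 and -1.51, and without RV R14del-PLN replicate 3 that in the RV was -1.63. Nothing is read from the counts of fits that follow, since the list was made with earlier results of these data known. Of 25 alternative fits 20 put Ddit4 past the thresholds in the LV and 17 in the RV. It did not pass in the LV without LV WT-PLN replicate 2 or 3 or LV R14del-PLN replicate 1 or 2, and in the RV without any RV WT-PLN replicate, RV R14del-PLN replicate 1 or 2, LV WT-PLN replicate 3 or LV R14del-PLN replicate 2. The median difference of the list between the genotypes was -0.16 in the LV and -0.08 in the RV, beside -0.09 and -0.00 for all genes. Adm stood at 0.18 and 0.31 and Apln at 0.04 and 0.16. A part of hypoxia-inducible factors in these values was not tested.

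Genes with the most similar pattern to each member were sought by Pearson's r of log2(TPM + 1) over the 12 samples, as a description over samples that share groups. For Aplnr they were Kctd12b (r = 0.975), Myct1 (0.971) and Nos2 (0.967). For Ramp3 they were Fyn (0.967), Thsd1 (0.954) and Mgll (0.929), and for Ramp2 Vamp2 (0.955), Mkrn1 (0.954) and Gatsl3 (0.943). With the group means removed, r was 0.797 for Kctd12b, 0.930 for Myct1 and 0.930 for Nos2 with Aplnr. It was 0.913 for Fyn, 0.744 for Thsd1 and 0.724 for Mgll with Ramp3, and 0.811 for Vamp2, 0.815 for Mkrn1 and 0.622 for Gatsl3 with Ramp2. The leading genes were Rgs4 for Apln (0.920), Megf9 for Adm (0.932), Tmem51 for Calcrl (0.859) and Pgpep1 for Ramp1 (0.872). Among the members themselves, Adm went with Aplnr (0.711) and with Calcrl (0.706), and Calcrl went against Ramp2 (-0.740).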

How the data were processed

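RNA was extracted with Trizol from flash-frozen ventricles and made into polyA stranded libraries, and the paper names CLC Genomics Workbench 20.0.2 for mapping to GRCm38 and a threshold of FDR 0.05 and fold 1.5. The authors deposited 1 table per sample in TPM (length-scaled abundances with the same total in every sample); the program and annotation behind TPM are not given in the sources used here. TPM keeps no depth, so no counting error or detection floor is given. Groups and replicate numbers came from the labels. The labels do not state that samples are separate animals, and p-values then measure only the spread between these samples.

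The members and gene lists were chosen with earlier results of these data known, so genotype differences of the members and of named pathway genes carry no p. Genes whose mean reached 0.5 TPM were fitted as log2(TPM + 1) in 1 limma model of 4 group means (limma 3.58.1, R 4.3.3, with an intensity trend; residual degrees of freedom 8, prior 5.15) with Benjamini-Hochberg adjustment; such differences understate the change of low genes. The script was tested on simulated data. Shares were compared by exact permutation of unpaired samples in Python 3.11.15. Correlation of deviations between same-numbered LV and RV samples was 0.321 to 0.657 in WT-PLN, so the numbers were taken to pair these, and 0.0542 to 0.389 in R14del-PLN. The main limma fits and the permutation tests did not use this pairing, which entered only the fits with a replicate block. With the random block, the consensus correlation within pairs was 0.0885. Named genes were the members, the 3 genes most correlated with each (all or the first are printed), called genes of the pathway lists, and fixed ligands, receptors and enzymes, of which 1 is not reported here. Positions are from GENCODE M21 on GRCm38 and promoters from RefSeq. Alternatives changed the pseudocount, filter, trend, scaling, samples, block and reference level.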

Additional observations from a re-analysis of the deposited data

How the results depend on the processing

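No setting tried turned the genotype difference of Aplnr or Ramp2 or the ventricular difference of Ramp3, Ramp2 or Aplnr. The genotype differences were in view when the genes were chosen, so for them this is a description and not a test. Leaving out each sample in turn gave 0 to 1 called genes between the ventricles in WT-PLN, 0 to 2 between the genotypes in the LV and 0 to 1 in the RV. The fixed replicate block gave 1 between the ventricles in WT-PLN (Ramp3) and changed no other call of the 7 genes. In all genes it raised the calls between the genotypes from 65 to 119 in the LV and from 34 to 62 in the RV. There the labels tie same-numbered samples only by the number (correlations of deviations -0.0209 to 0.219). The mean correlation was 0.076 in the LV and 0.138 in the RV, beside -0.038 and -0.070 for different numbers. Whether same-numbered samples were processed together is not stated and was not tested. Between the genotypes, the count was 0 in both ventricles with no filter on low values, 0 in the RV with only the 6 samples compared, and 2 in the LV without both WT-PLN replicate 1 samples; the cause was not tested. A pseudocount of 0.1 TPM moved Aplnr to 1.25 in the LV and 1.46 in the RV, and leaving out mitochondrially encoded genes to 1.29 in the RV. Over 25 settings the genotype difference ran from -0.12 to 0.19 for Apln and -0.25 to 0.13 for Ramp1 in the LV, and from -0.0039 to 0.32 for Apln, -0.18 to 0.20 for Ramp1 and -0.065 to 0.21 for Ramp3 in the RV, so these have no settled sign. Relative to endothelial markers, RV minus LV became 0.043 for Apln, 0.27 for Adm and 0.19 for Ramp1 in WT-PLN, and 0.0038 for Apln, 0.24 for Adm and 0.038 for Ramp1 in R14del-PLN, where Adm also turned to 0.017 under quantile normalization, 0.027 under upper quartile scaling and 0.088 without mitochondrially encoded genes. The interaction turned for Apln (-0.039), Aplnr (-0.11), Adm (-0.029), Calcrl (-0.12), Ramp1 (-0.15) and Ramp2 (-0.020) relative to endothelial markers, for Aplnr (-0.034), Calcrl (-0.053) and Ramp1 (-0.11) under quantile normalization, for Aplnr (-0.0025), Calcrl (-0.035) and Ramp1 (-0.082) under upper quartile scaling, and for Calcrl (-0.064) without both WT-PLN replicate 1 samples. Leaving out 1 sample, it ran from -0.043 to 0.28 for Apln, -0.11 to 0.19 for Aplnr, -0.020 to 0.31 for Adm, -0.027 to 0.15 for Calcrl, -0.16 to 0.23 for Ramp1 and -0.061 to 0.33 for Ramp2, and RV minus LV of Calcrl in WT-PLN from -0.065 to 0.11. RV minus LV in WT-PLN ran from -0.21 to 2.47 percentage points for the Ramp1 share (-0.10 without both WT-PLN replicate 1 samples) and from -0.044 to 0.34 for the ratio of Apln to Aplnr. In R14del-PLN it ran from -1.53 to 2.82 points for the Ramp1 share, -1.64 to 4.78 for Ramp2, -3.25 to 0.41 for Ramp3, and from -0.023 to 0.10 for the ratio of Apln to Aplnr. TPM keeps no depth, and 3 samples a group limit what can be called.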
